A study of Mus musculus with 16 samples.

Results

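The genes read here in mouse islet RNA are 10 inflammatory genes of the cytokine and neutrophil type, namely Il1b, S100a8, S100a9, Slpi, Lcn2, Saa3, Cxcl1, Cxcl2, Ccl2 and Nfkbia. They were taken by symbol from both deposited expression tables, and all 10 were present in both, out of 16815 genes shared by the tables and 17864 genes in either. The genes were selected on their FPKM levels in these same libraries, so their levels and differences are given as a description, with no test of a difference between groups on any of them.

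The study asked how the immune checkpoint ligand B7-H4, encoded by Vtcn1, acts in β cells. Islet RNA gave 16 sequencing libraries, 4 in each of 4 groups. The mice of the Flox and cKO groups ate a normal chow diet. Both groups were homozygous for a B7-H4 allele with exon 2 between loxP sites, and the cKO mice also carried Rip-Cre, a Cre recombinase driven by the rat insulin II promoter (the Ins2-cre 25Mgn line), whose deletion is meant for β cells. The Flox controls were littermates without Cre, and no group among the 16 libraries carried Cre alone. Ctrl and OE mice were fed a high-fat diet (HFD) from 6 weeks of age for 8 weeks, then received AAV2/8-Ctrl or AAV2/8-Ins2-B7H4 through the pancreatic duct, and islets were collected 5 weeks later. The OE virus carries B7-H4 behind the Ins2 promoter. The methods call the HFD-fed animals Flox mice, while the series description calls them wild type. Libraries are named here by group and number, for example Flox20.

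Interleukin 1β, made by macrophages and neutrophils, binds its receptor on islet cells, and signalling from that receptor releases the transcription factor NF-κB from its inhibitor IκBα. NF-κB then raises the chemokines that call in neutrophils (Cxcl1, Cxcl2) and monocytes (Ccl2), and also Nfkbia, the gene of IκBα itself. S100a8 and S100a9 form calprotectin, the most plentiful cytosolic protein of neutrophils, while Slpi, Lcn2 and Saa3 encode secreted defence proteins that epithelial and myeloid cells make during inflammation.

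Values are FPKM (fragments mapped to a gene, scaled by its length and by the library's mapped reads). The values of 5226 of the 5689 genes that stayed under 2 FPKM in every library (91.9%) were whole multiples of a step once relative depth was taken into account, within 0.02 of a step. A step is the value of 1 fragment, up to a factor common to all libraries, so step numbers are given beside the values of low genes. Relative depth lay between 0.914 and 1.18 of the median library. Vtcn1 stood between 0.0188 and 0.216 FPKM in Flox and cKO islets, with overlap of the groups, between 0.0636 and 0.371 FPKM in Ctrl islets and between 40.01 and 128 FPKM in OE islets. A gene-level FPKM does not show the loss of 1 exon, and Vtcn1 was already near the floor of detection in Flox islets. These values therefore do not check the deletion. The study itself reported lower B7-H4 mRNA (quantitative PCR) and protein (Western blot) in cKO islets. Islet preparations differed in acinar content. Acinar enzyme genes made up 7.47% to 35.9% of the summed FPKM in Flox, 36.5% to 46.3% in cKO, 2.21% to 76.0% in Ctrl and 11.3% to 14.7% in OE libraries. The Flox and cKO shares did not overlap. A fit of these groups with the acinar share as a covariate therefore cannot part acinar content from genotype. In bulk islet RNA, fewer cells of a type and less RNA per cell cannot be told apart, and this holds for every difference below.

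Nfkbia was the most strongly expressed of the 10 genes, with a mean of 29.7 FPKM over the 16 libraries, and Il1b followed with 2.13 FPKM. The other 8 genes had means between 0.0594 FPKM (Saa3) and 1.21 FPKM (Lcn2). Saa3 stayed under 0.5 FPKM in all 16 libraries, and Cxcl1 and Slpi in 14 of 16. S100a8 and Saa3 were listed at 0 in 8 of 16 libraries, Slpi in 7, S100a9 and Ccl2 in 4, Cxcl2 in 2, and Lcn2 and Cxcl1 in 1. Il1b was detected in all libraries and was under 0.5 FPKM in 3 of 16, and Lcn2 was under it in 7, so the genes closest to the floor of detection were the other 7 besides Nfkbia. The largest step number of any library was 408 for Il1b, 137 for Lcn2, 118 for Cxcl2, 98 for S100a9, 80 for Slpi, 77 for S100a8, 64 for Ccl2, 63 for Cxcl1 and 4 for Saa3.

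**Figure D1:**
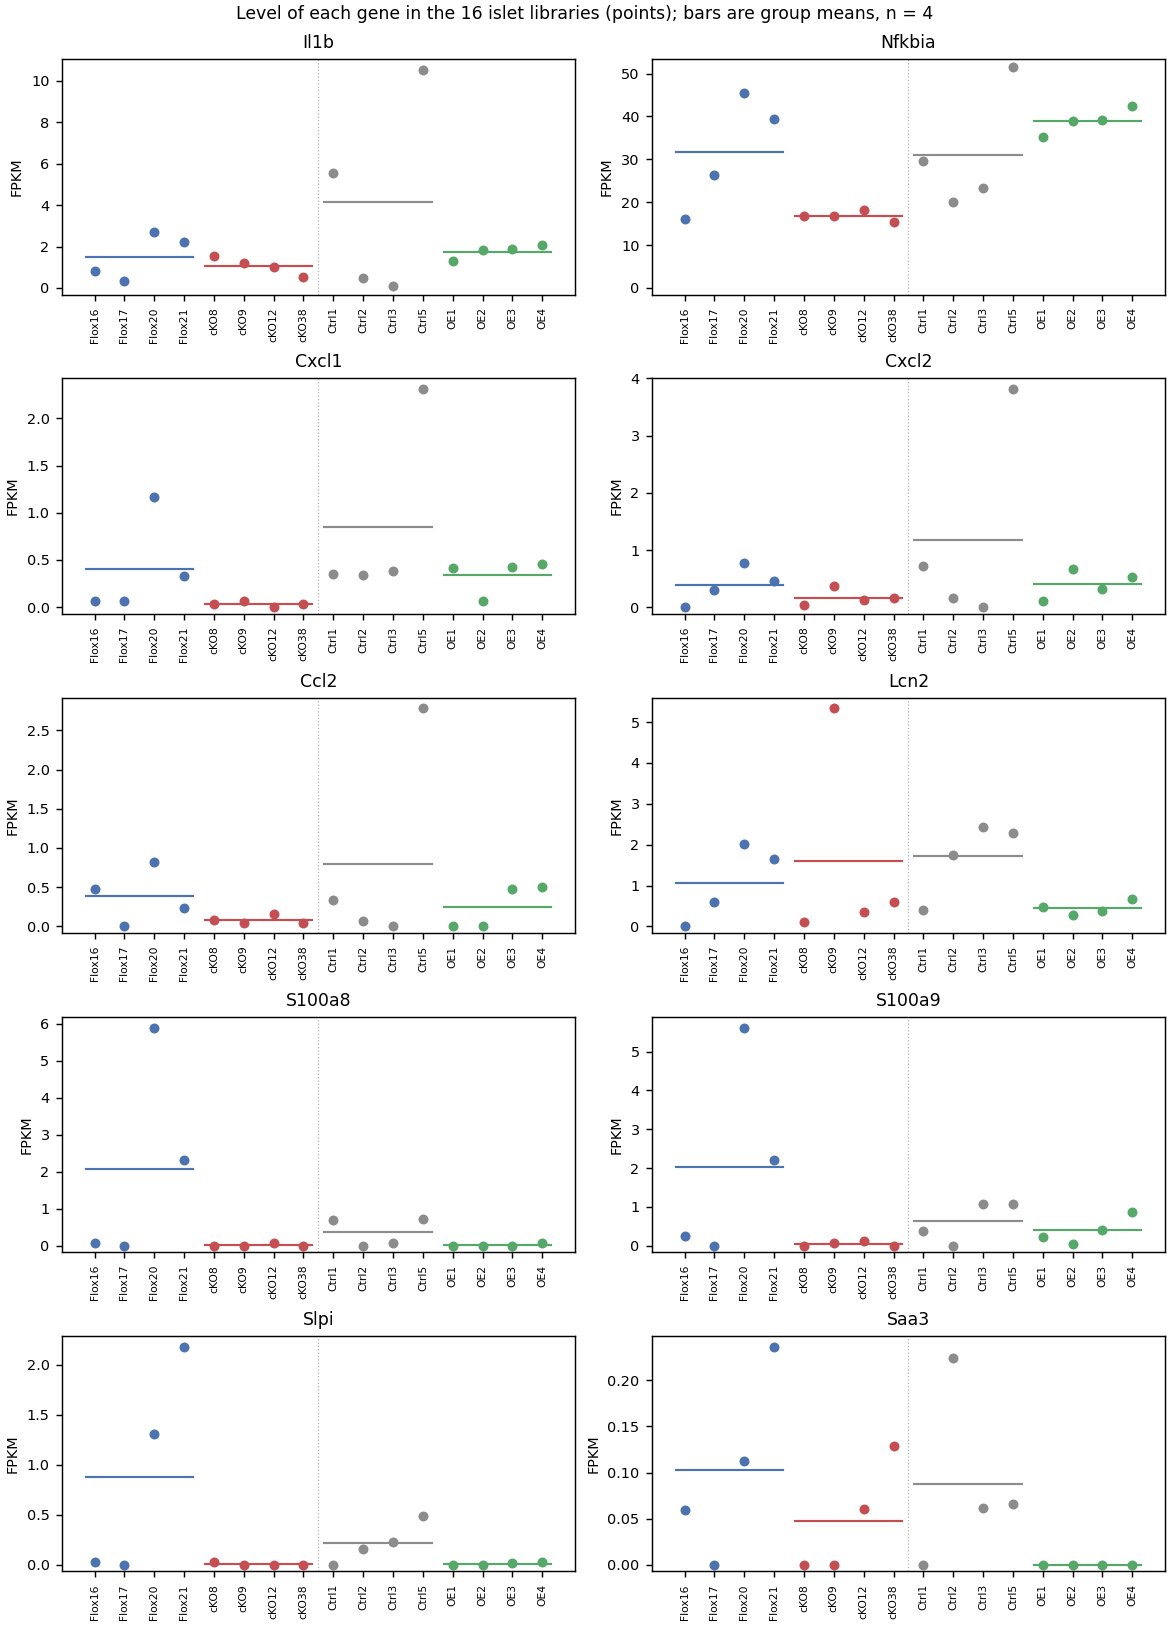
Level of each of the 10 genes (vertical axis, FPKM, linear scale) in the 16 islet libraries (horizontal axis). Each point is 1 library, horizontal bars are means of the 4 libraries of a group, and the dotted line parts the separately normalised chow table from the HFD table. Most high points are Flox20, Flox21 and Ctrl5, while the cKO and OE libraries lie close together for most genes.

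Il1b encodes the cytokine interleukin 1β. It stood at 0.798, 0.332, 2.70 and 2.20 FPKM in Flox16, Flox17, Flox20 and Flox21, beside 1.54, 1.22, 1.03 and 0.530 FPKM in cKO8, cKO9, cKO12 and cKO38. The Flox values lay on both sides of the cKO values, so the groups overlapped. In HFD-fed mice it stood at 5.55, 0.482, 0.0727 and 10.5 FPKM in Ctrl1, Ctrl2, Ctrl3 and Ctrl5, the last being 1.90 times the next highest library. The OE libraries OE1 to OE4 had 1.29, 1.83, 1.86 and 2.06 FPKM, all between Ctrl2 and Ctrl1. The Ctrl group therefore spread over 3 to 408 steps, and the OE group over 61 to 97. The group means ± SD (n = 4) were 1.51 ± 1.12 FPKM in Flox, 1.08 ± 0.422 in cKO, 4.16 ± 4.92 in Ctrl and 1.76 ± 0.330 in OE, so that both differences were smaller than the SD of the control group. On the log2(FPKM + 0.5) scale Il1b differed by -0.19 (SE 0.50) between cKO and Flox and by -0.14 (SE 1.03) between OE and Ctrl. Neither sign was stable. The first turned to 0.10 without Flox20, to 0.90 with the acinar share as a covariate and to 0.10 under median-of-ratios scaling, in which each library is divided by the median ratio of its genes to their geometric means. The second turned to 0.57 without Ctrl5 and 0.29 without Ctrl1, and was -0.85 without Ctrl3.

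Nfkbia encodes IκBα, which holds NF-κB in the cytoplasm and is itself induced by it. Its levels were 16.05, 26.2, 45.5 and 39.4 FPKM in Flox16, Flox17, Flox20 and Flox21, and 16.9, 16.9, 18.1 and 15.3 FPKM in cKO8, cKO9, cKO12 and cKO38. Flox17, Flox20 and Flox21 exceeded every cKO library, and Flox16 fell among the cKO libraries. In Ctrl1, Ctrl2, Ctrl3 and Ctrl5 it was 29.5, 20.1, 23.3 and 51.6 FPKM, and in OE1 to OE4 35.3, 39.0, 39.2 and 42.3 FPKM. All OE libraries lay above 3 of the Ctrl libraries and below Ctrl5. The log2 difference was -0.80 (SE 0.33) for cKO minus Flox and 0.41 (SE 0.30) for OE minus Ctrl. The OE difference was close to the median of all genes in that comparison, 0.44, and turned to -0.13 under median-of-ratios scaling. Nfkb1 and Rela, which encode NF-κB subunits held by IκBα, were expressed throughout, Nfkb1 between 3.48 and 18.7 FPKM and Rela between 6.14 and 17.8 FPKM.

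Il1r1, the signalling receptor for interleukin 1, is no member of the set but was tested in the lists of pathway genes described further on. It stood at 67.3, 104, 160.2 and 159 FPKM in Flox16, Flox17, Flox20 and Flox21. In cKO8, cKO9, cKO12 and cKO38 it stood at 37.2, 34.6, 37.9 and 29.1 FPKM. Every cKO library was below every Flox library, which also held for 15.4% of the 11804 genes tested. The group means were 34.7 ± 4.01 FPKM (SD, n = 4) in cKO and 123 ± 45.3 FPKM (SD, n = 4) in Flox. Il1r1 fell by 1.73 on the log2 scale in cKO islets (SE 0.24, adjusted p = 0.0112, limma with Benjamini-Hochberg adjustment over 11804 genes), against a median of -0.34 over all genes tested. Under median-of-ratios scaling the log2 difference was -1.35 with adjusted p = 0.0305 (limma). With a library's acinar share added as covariate it was -1.13 with adjusted p = 0.670 (limma), and with every gene above 0 FPKM in the fit the adjusted p was 0.0838, so the call was lost in both. The acinar shares of Flox and cKO do not overlap, so the covariate fit cannot part acinar content from genotype. The shares of β-cell marker genes did not overlap either, at 35.4% to 54.7% of summed FPKM in Flox and 25.8% to 32.8% in cKO. The part of β-cell content in the level of Il1r1 was not tested.

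In HFD-fed mice Il1r1 stood at 132, 44.2, 14.0 and 86.0 FPKM in Ctrl1, Ctrl2, Ctrl3 and Ctrl5, and between 81.0 and 114 FPKM in the OE libraries. Ctrl2 and Ctrl3 lay below all OE libraries and Ctrl1 above them. The β-cell share was 19.1% in Ctrl2, 4.38% in Ctrl3, 39.4% in Ctrl5, 55.1% in Ctrl1 and 47.0% to 51.1% in the OE libraries. The log2 difference of 0.97 (SE 0.55) did not pass (adjusted p = 0.591, limma). The co-receptor gene Il1rap, needed for the signal, was much lower, between 0.551 and 1.37 FPKM in Flox, 1.19 and 1.72 in cKO, 0.134 and 0.720 in Ctrl and 0.289 and 0.461 in OE islets. Its log2 difference between cKO and Flox was 0.59 (SE 0.21, adjusted p = 0.0549, limma), opposite in sign to that of Il1r1 and short of the threshold. The decoy receptor gene Il1r2 lay between 0.135 and 1.44 FPKM, and Il1rn, the gene of the receptor antagonist, reached 0.237 FPKM at most.

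**Figure D2:**
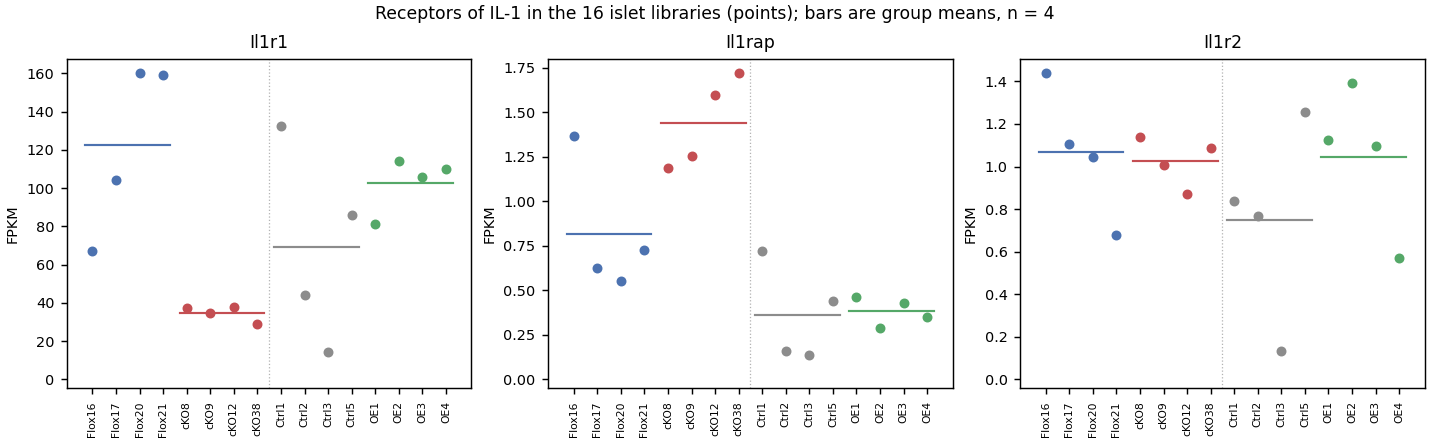
FPKM (vertical axes, linear) of the interleukin 1 receptor gene Il1r1, the co-receptor gene Il1rap and the decoy receptor gene Il1r2 in each of the 16 libraries (points), with group means as bars (n = 4). The 4 cKO libraries lie at 29.1 to 37.9 FPKM of Il1r1, below all Flox libraries, while for Il1rap and Il1r2 the chow groups overlap.

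The chemokines Cxcl1 and Cxcl2 bind Cxcr2 on neutrophils, and Ccl2 binds Ccr2 on monocytes. In the RefSeq annotation of GRCm38.p6 the genes of the first pair are neighbours on chromosome 5, Cxcl1 at chr5:90891245-90893121 and Cxcl2 at chr5:90903899-90905938, with 10.8 kb between them. Ccl2 is at chr11:82035577-82037452. Promoters of 9 of the 10 genes were in the RefSeq-derived table of that build (all except Ccl2). The 250 bases before each transcript start were searched on both strands for the κB letters GGAATTTCC, a choice of letters settled after matches had been seen. They were present before Cxcl1, Cxcl2 and Nfkbia, 3 of 9, and before 79 of all 27025 promoters of that length (0.292%). Since the letters were picked with matches known, these shares are a description and support nothing. The match ran from 70 to 62 bases before the start in Cxcl1, from 96 to 88 in Cxcl2 and, on the other strand, from 29 to 21 in Nfkbia (gene at chr12:55489409-55492647, minus strand). It did not overlap the second motif searched, given further on. A letter match is a description and not a shown binding site. The stretches around it are given 5′ to 3′ along the gene's strand because these genes share the letters searched, with the matched letters in capitals, at chr5:90891140-90891218, chr5:90903768-90903846 and chr12:55492648-55492711 in this order:
Cxcl1: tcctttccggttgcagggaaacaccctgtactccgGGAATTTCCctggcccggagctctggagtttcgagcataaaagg
Cxcl2: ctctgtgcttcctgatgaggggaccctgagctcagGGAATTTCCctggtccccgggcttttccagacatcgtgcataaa
Nfkbia: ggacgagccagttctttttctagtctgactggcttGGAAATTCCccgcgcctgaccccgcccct

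Cxcl1 stood at 0.0667, 0.0673, 1.16 and 0.328 FPKM in Flox16, Flox17, Flox20 and Flox21, which are 2, 2, 37 and 10 steps. In cKO8, cKO9, cKO12 and cKO38 it stood at 0.0346, 0.0695, 0 and 0.0358 FPKM, or 2 steps at most. Flox20 and Flox21 were above all cKO libraries, and Flox16 and Flox17 were among them. Cxcl1 was 0.355, 0.342, 0.378 and 2.31 FPKM in Ctrl1, Ctrl2, Ctrl3 and Ctrl5. In OE1 to OE4 it was 0.420, 0.0610, 0.426 and 0.453 FPKM. Ctrl5 was thus 5.10 times the next highest library of the table, and without it the Ctrl values were close to 3 of the OE values.

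Cxcl2 stood at 0, 0.297, 0.776 and 0.463 FPKM in Flox16, Flox17, Flox20 and Flox21, beside 0.0305, 0.368, 0.120 and 0.158 FPKM in cKO8, cKO9, cKO12 and cKO38. The highest values were again those of Flox20 and Flox21, but cKO9 exceeded Flox17 and the groups overlapped. In Ctrl1, Ctrl2, Ctrl3 and Ctrl5 it stood at 0.720, 0.164, 0 and 3.81 FPKM, and in OE1 to OE4 at 0.106, 0.673, 0.326 and 0.532 FPKM. Ctrl5 held 118 of the 209 steps of the 8 HFD libraries (56.5%) and was 5.30 times the next highest.

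Ccl2 stood at 0.474, 0, 0.819 and 0.233 FPKM in Flox16, Flox17, Flox20 and Flox21, beside 0.0820, 0.0412, 0.161 and 0.0425 FPKM in cKO8, cKO9, cKO12 and cKO38. Flox16, Flox20 and Flox21 were above all cKO libraries, and Flox17, listed at 0, was below them. In Ctrl1, Ctrl2, Ctrl3 and Ctrl5 it stood at 0.336, 0.0737, 0 and 2.78 FPKM, and in OE1 to OE4 at 0, 0, 0.471 and 0.5005 FPKM. Ctrl5 held 64 of 102 steps (62.7%) and was 5.55 times the next highest library.

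The log2(FPKM + 0.5) differences between cKO and Flox were -0.61 (SE 0.37) for Cxcl1, -0.35 (SE 0.32) for Cxcl2 and -0.52 (SE 0.31) for Ccl2. Those between OE and Ctrl were -0.49 (SE 0.47), -0.38 (SE 0.72) and -0.42 (SE 0.68) in the same order. The added 0.5 understates the change of genes this low. Without Ctrl5 the OE differences became -0.06 for Cxcl1, 0.25 for Cxcl2 and 0.18 for Ccl2, so the sign of the last pair turned without that library. The receptor gene Cxcr2 was listed at 0 in 13 of 16 libraries and reached 0.0769 FPKM at most, in Flox20. Ccr2 was detected in all libraries at 0.00680 to 0.659 FPKM, with the highest value in Ctrl5.

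S100a8 and S100a9 lie 22.6 kb apart on chromosome 3, at chr3:90669071-90670034 and chr3:90692630-90695721 (GRCm38.p6). S100a8 stood at 0.0812, 0, 5.90 and 2.32 FPKM in Flox16, Flox17, Flox20 and Flox21. In cKO8, cKO9, cKO12 and cKO38 it was 0, 0, 0.0826 and 0 FPKM. Flox20 and Flox21 held 106 of the 108 steps of the 8 chow libraries (98.1%), and Flox16 and Flox17 were as low as the cKO libraries. S100a9 stood at 0.243, 0, 5.61 and 2.21 FPKM in the Flox libraries in the same order and at 0, 0.0634, 0.124 and 0 FPKM in the cKO libraries. Flox20 and Flox21 held 135 of its 142 steps (95.1%). The ratio of S100a8 to S100a9 FPKM was 1.05 in both of these libraries.

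In HFD-fed mice the pair did not always appear together. S100a8 stood at 0.691, 0, 0.0838 and 0.714 FPKM in Ctrl1, Ctrl2, Ctrl3 and Ctrl5, and S100a9 at 0.388, 0, 1.07 and 1.07 FPKM. S100a8 was listed at 0 in OE1, OE2 and OE3 and stood at 0.0735 FPKM in OE4, which is 1 step, while S100a9 was 0.219, 0.0556, 0.414 and 0.880 FPKM in OE1 to OE4. S100a9 was thus seen with little or no S100a8 in Ctrl3 (17 against 1 steps), OE3 (8 against 0) and OE4 (16 against 1), whereas Ctrl1 had 8 steps of S100a8 and 6 of S100a9. Over the 8 chow libraries the log2 values of S100a8 and S100a9 had a Pearson r of 0.996, and over the 8 HFD libraries 0.46, with libraries and depth shared by both genes of a pair. The log2 differences between cKO and Flox were -1.54 (SE 0.90) for S100a8 and -1.53 (SE 0.84) for S100a9, and those between OE and Ctrl -0.64 (SE 0.34) and -0.28 (SE 0.48). Without Flox20 the cKO differences were -0.85 and -0.88, and with the acinar share as a covariate they turned to 0.39 and 0.25. The OE difference of S100a9 was -0.07 without Ctrl5 and also without Ctrl3.

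Several genes that define neutrophils were at or near 0, while others of the list reached 1 to 2 FPKM in single libraries. Of a list of 22 neutrophil markers 17 were in each table, and Elane, Ctsg and Stfa2l1 were in neither. Ly6g, the surface marker of mouse neutrophils, was listed at 0 in both Flox20 and Ctrl5 and reached 0.412 FPKM in Flox17. The highest marker on average was Hdc, histidine decarboxylase, with means of 0.434 FPKM in the chow and 0.863 FPKM in the HFD table. Hdc was detected in every library and is a large part of several sums given next. It stood at 0.850 FPKM in Flox20, 0.947 FPKM in Flox21 and 1.65 FPKM in Ctrl5. In OE2 it made up 0.782 FPKM of a sum of 1.10 FPKM. The summed level of the list was 0.791, 1.43, 4.87 and 2.76 FPKM in Flox16, Flox17, Flox20 and Flox21 and 0.516 to 0.659 FPKM in the cKO libraries. Flox20 and Flox21, the libraries with S100a8 and S100a9, thus had the 2 highest sums of the chow table, with 13 and 14 of the 17 markers above 0. In the HFD table the sum was 4.496, 0.503, 0.517 and 6.68 FPKM in Ctrl1, Ctrl2, Ctrl3 and Ctrl5 and 1.10 to 2.00 FPKM in the OE libraries. The markers that made up the high sums differed between libraries, and they are named after their values were seen. Retnlg, a granulocyte resistin-like gene, reached 2.22 FPKM in Flox20 and 0.412 FPKM in Flox21 and was listed at 0 in Ctrl5. Ctrl5 had 2.02 FPKM of Csf3r, the receptor of the granulocyte growth factor G-CSF, which was the highest value of that gene, and 1.11 FPKM of the granule gene Camp. The granule gene Ngp stood at 1.58 FPKM in Ctrl1 and 0.994 FPKM in Ctrl5. The part of neutrophils in the levels of the 10 genes was not tested.

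Slpi encodes a secreted protease inhibitor, Lcn2 the iron-siderophore carrier lipocalin 2, and Saa3 an acute-phase serum amyloid A protein. Of the 9 genes with a promoter sequence 4 carried the C/EBP-type octamer TTGCNNAA within 250 bases of the start, on either strand, and these were S100a9, Slpi, Lcn2 and Saa3. The octamer was before 2582 of 27025 promoters (9.55%). The genes were selected as inflammatory and neutrophil-type genes, so these shares are a description and support nothing. A match of the octamer is not a shown binding site. C/EBP factors act in granulocytes and in acute-phase induction, and the stretches of the secreted pair with the best known acute-phase role are given with the octamer in capitals, at chr2:32387913-32387989 for Lcn2 (216 to 209 bases before the start) and chr7:46715733-46715810 for Saa3 (99 to 92 bases before the start, as a match of the other strand):
Lcn2: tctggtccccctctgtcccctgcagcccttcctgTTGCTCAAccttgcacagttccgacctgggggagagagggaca
Saa3: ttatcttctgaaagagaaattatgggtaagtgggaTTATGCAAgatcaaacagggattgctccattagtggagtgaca

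Slpi followed S100a8 in the chow table. It stood at 0.0277, 0, 1.30 and 2.18 FPKM in Flox16, Flox17, Flox20 and Flox21, beside 0.0287, 0, 0 and 0 FPKM in cKO8, cKO9, cKO12 and cKO38. Flox20 and Flox21 held 130 of 132 steps (98.5%). In Ctrl1, Ctrl2, Ctrl3 and Ctrl5 it stood at 0, 0.155, 0.229 and 0.487 FPKM, and in OE1 to OE4 at 0, 0, 0.0236 and 0.0251 FPKM. Ctrl2, Ctrl3 and Ctrl5 were above all OE libraries, and Ctrl1 was at 0 with OE1 and OE2. The log2 differences were -1.07 (SE 0.62) between cKO and Flox and -0.44 (SE 0.20) between OE and Ctrl. The first was -0.62 without Flox21 and turned to 0.43 with the acinar share as a covariate, and the second was -0.28 without Ctrl5.

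Lcn2 was highest in a cKO library among chow-fed mice, unlike the other 9 genes. It stood at 0, 0.603, 2.01 and 1.65 FPKM in Flox16, Flox17, Flox20 and Flox21, beside 0.116, 5.33, 0.341 and 0.602 FPKM in cKO8, cKO9, cKO12 and cKO38. Its highest level was in cKO9, with 137 of the 282 steps of the table (48.6%), and the next were Flox20 and Flox21. The log2 difference between cKO and Flox was 0.04 (SE 0.90), and without cKO9 it was -0.66. In Ctrl1, Ctrl2, Ctrl3 and Ctrl5 Lcn2 stood at 0.397, 1.74, 2.43 and 2.30 FPKM, and in OE1 to OE4 at 0.471, 0.273, 0.381 and 0.676 FPKM. Ctrl2, Ctrl3 and Ctrl5 were above all OE libraries, and Ctrl1 was between OE3 and OE1. The log2 difference of -1.10 (SE 0.42) was the most negative of the 10 genes in this comparison, and it lay between -1.60 and -0.83 over all alternatives. Ctrl2 and Ctrl3, with Lcn2 at 1.74 and 2.43 FPKM, were also the libraries with the most acinar RNA, 58.3% and 76.0% of summed FPKM, but Ctrl5 with 2.30 FPKM had the least. The part of acinar RNA in the level of Lcn2 was not tested. Slc22a17, which encodes a receptor described for lipocalin 2, stood between 9.91 and 96.7 FPKM.

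Saa3 was barely detected. It had at most 4 steps in a library, reached in Flox21 (0.236 FPKM) and Ctrl2 (0.224 FPKM), and 16 steps over all 16 libraries. In the OE libraries it was listed at 0 throughout, against 0, 0.224, 0.0619 and 0.0659 FPKM in Ctrl1, Ctrl2, Ctrl3 and Ctrl5. A difference between the groups was not detectable at this depth.

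Seen together, the 10 genes were highest in single libraries of the control groups, except for Lcn2 among the chow libraries. Among the chow libraries Flox20 had the highest level of 7 genes and was among the top 2 for 9, Flox21 had the highest level of 2 and was among the top 2 for 8, and cKO9 had the highest Lcn2. Among the HFD libraries Ctrl5 had the highest level of 8 genes and was among the top 2 for all 10. No member had values without overlap between groups, in either comparison. For background, 15.4% of the 11804 genes tested were without overlap and lower in cKO than in Flox, and 1.32% higher. In the other comparison 0.964% of the 12132 genes tested were without overlap and lower in OE, and 5.61% higher. Of the members 5 passed the filter on low values in the chow table (Il1b, S100a8, S100a9, Lcn2, Nfkbia) and 7 in the HFD table (Il1b, S100a9, Lcn2, Cxcl1, Cxcl2, Ccl2, Nfkbia).

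The median log2 difference of the 10 genes was -0.56 between cKO and Flox, with 9 genes lower and 1 higher, beside a median of -0.34 over all genes tested. Between OE and Ctrl it was -0.40, with 9 lower and 1 higher, beside a median of 0.44 over all genes. These medians of all genes cover genes averaging at least 0.5 FPKM, whereas the members entered unfiltered. Over every gene with a mean above 0 FPKM the medians were -0.22 for cKO and 0.25 for OE. The members that passed the filter had medians of -0.80 for cKO (5 genes) and -0.38 for OE (7 genes). Median-of-ratios scaling brought both medians of all genes to within 0.01 of 0. After it, 8 members were lower and 2 higher in cKO, and all 10 were lower in OE. With the acinar share as a covariate the cKO median turned to 0.19, with 8 genes higher and 2 lower. That covariate cannot be parted from genotype, since the Flox and cKO shares do not overlap. Without Flox20 the cKO median was -0.28, and without Ctrl5 the OE median was -0.07, with 4 genes higher and 6 lower.

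**Figure D3:**
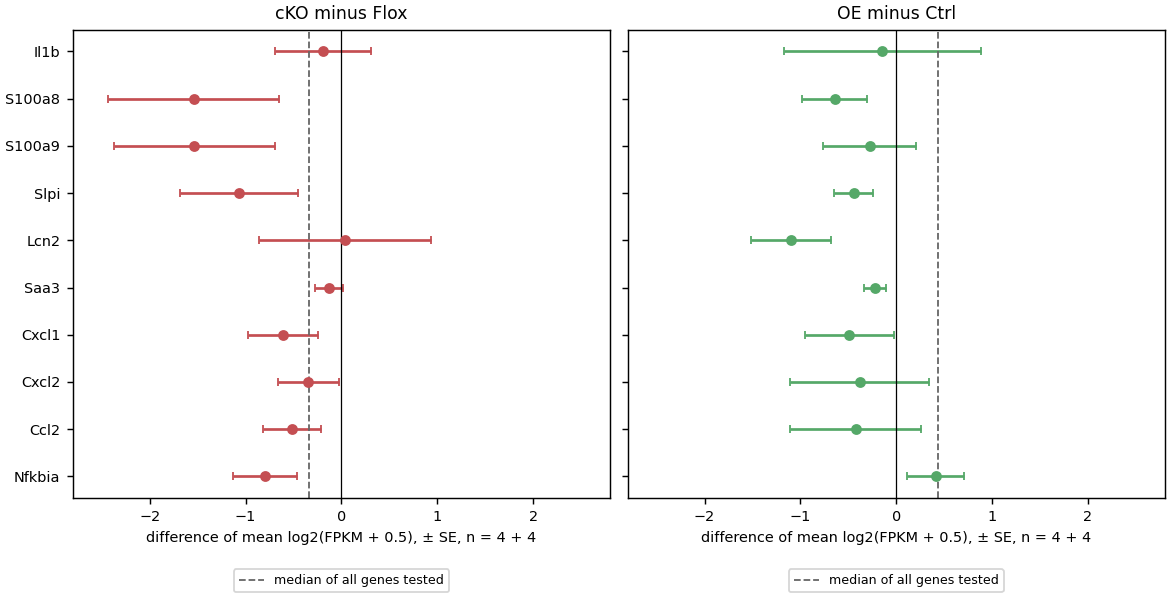
Difference of group means of log2(FPKM + 0.5) (horizontal axes) for each of the 10 genes, cKO minus Flox at left and OE minus Ctrl at right, with bars of ± 1 SE from 4 libraries per group and the median of all genes tested as a dashed line. In each panel 9 genes lie below 0, all except Lcn2 at left and Nfkbia at right, and the bars are widest for S100a8, S100a9 and Lcn2 at left and for Il1b at right.

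Around these genes, 3 lists of other genes of the same pathways were examined, 112 genes in all with no member among them. They cover interleukin 1 and NF-κB signalling (40 genes), chemokines, their receptors and leukocyte adhesion (44 genes) and acute-phase and antimicrobial defence (28 genes). In the cKO comparison 57 of them passed the filter on low values, and Il1r1 was the 1 gene called, on a log2 difference beyond 1 in size together with an adjusted p under 0.05, while 0 were called higher. Of all 11804 genes tested 1.31% were called, 40 higher and 115 lower, or 26 higher and 10 lower under median-of-ratios scaling. Without a fold minimum, 4 interleukin 1 and NF-κB genes, 3 chemokine and adhesion genes and 3 defence genes were lower at an adjusted p under 0.05 (limma), and 0 were higher, which is 10 of 57 lower beside 12.8% lower and 1.02% higher of all genes tested. The list medians were -0.43 for 29 interleukin 1 and NF-κB genes, -0.44 for 13 chemokine and adhesion genes and -0.81 for 15 defence genes, beside -0.34 over all genes, and 3 of these 15 passed the adjusted threshold. At an unadjusted p under 0.05, which 41.5% of all genes reached, 1 interleukin 1 and NF-κB gene was higher and 13 were lower, 3 chemokine and adhesion genes were lower and 7 defence genes were lower. Leaving out a library moved the number of called pathway genes between 1 and 10, with 10 without Flox17, 8 without Flox16 and 2 without cKO8, and with the acinar share as a covariate it was 0.

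In the OE comparison 66 pathway genes passed the filter and limma called 0, as against 0.033% of the 12132 genes tested. At an unadjusted p under 0.05 limma gave 4 chemokine and adhesion genes lower, 1 defence gene higher and 0 of the interleukin 1 and NF-κB genes, while 6.41% of all genes tested reached it. The list medians were 0.35 for 31 interleukin 1 and NF-κB genes, -0.46 for 21 chemokine and adhesion genes and 0.24 for 14 defence genes, beside 0.44 over all genes. The calls depended on the acinar share, which in OE (11.3% to 14.7%) lay within the range of Ctrl (2.21% to 76.0%). With it as a covariate 480 of all genes were called, and 1 pathway gene, which was lower in OE. Tlr4, the endotoxin receptor at which S100a8 and S100a9 are known to act, was low in all libraries, between 0.0206 and 0.320 FPKM.

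Markers of some other cells were also high in libraries that were high in these genes. Macrophage markers, all 17 of which were detected in every library, summed to 127 to 255 FPKM in Flox, 135 to 168 in cKO, 80.2 to 1936 in Ctrl and 283 to 381 in OE libraries. The highest macrophage sum of the HFD table, 1936 FPKM or 0.279% of the library, was that of Ctrl5, the next 523 FPKM in Ctrl1, and the lowest 80.2 FPKM in Ctrl3. This was also the order of Il1b in the Ctrl group, with 10.5, 5.55 and 0.0727 FPKM in these libraries. Cd74, the invariant chain of antigen-presenting cells and the most strongly expressed gene of the list, stood at 1195 FPKM in Ctrl5 and 297 FPKM in Ctrl1. In the chow table Flox21 and Flox20 had the highest macrophage sums, 255 and 221 FPKM, close to the 205 FPKM of Flox16, in which 8 of the 10 genes were under 0.5 FPKM. The acinar share was lowest in the same libraries, 7.47% in Flox21 and 10.7% in Flox20 among chow and 2.21% in Ctrl5 among HFD libraries, and the β-cell share was 54.7% in Flox21, 51.9% in Flox20 and 39.4% in Ctrl5. The β-cell share of Ctrl5 was below that of Ctrl1 (55.1%) and of the OE libraries (47.0% to 51.1%). Other lists followed in part. Endothelial markers summed to 737 FPKM in Ctrl5 and 459 FPKM in Ctrl1, against 256 FPKM at most in the other HFD libraries. Among chow libraries they summed to 182 FPKM in Flox21 and 154 FPKM in Flox20, beside 138 FPKM in Flox16. Fibroblast markers summed to 34.3 FPKM in Flox20 and 35.4 FPKM in Flox21, and to 20.7 FPKM at most in other chow libraries. Among HFD libraries they summed to 66.6 FPKM in Ctrl5, 65.5 FPKM in Ctrl3 and 25.3 FPKM in Ctrl1. Duct markers summed to 351 FPKM in Flox20 and 374 FPKM in Flox21, and to 252 FPKM at most in other chow libraries. Their HFD sums were closer, with 356 FPKM in Ctrl5 and 340 FPKM in OE2. The intestine and mesothelium lists were highest in other libraries. The part of macrophages, of these other cells and of acinar RNA in these levels was not tested.

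**Figure D4:**
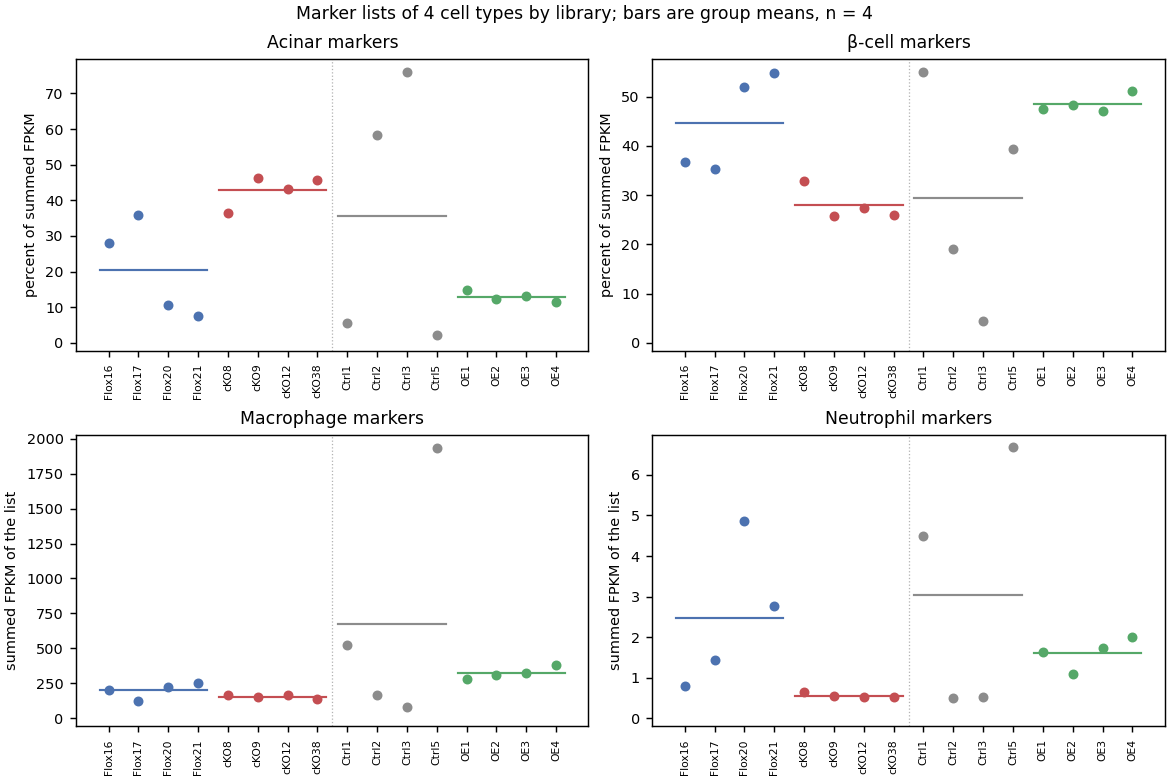
Marker lists by library (points) with group means as bars (n = 4). Acinar and β-cell markers are shown as percent of the summed FPKM of a library, and macrophage and neutrophil markers as summed FPKM. Ctrl5 has the highest macrophage and neutrophil sums, 1936 and 6.68 FPKM, and the lowest acinar share, 2.21%, and Flox20 has the highest neutrophil sum of the chow table.

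The genes whose pattern over the 16 libraries was most like the mean of the members were sought among 11420 genes. The profile was the mean of standardised log2 values of the 6 members with enough signal (Il1b, S100a8, S100a9, Lcn2, Cxcl2 and Nfkbia). Log2 values were first centred within the chow table and within the HFD table, for members and compared genes alike. Differences between the chow and HFD tables therefore do not enter r. The 5 most alike by Pearson correlation were Hspa1b (r = 0.903) and Hspa1a (r = 0.901), which encode inducible heat shock proteins, Jak3 (r = 0.897), a kinase of cytokine receptors, Serping1 (r = 0.892), the complement C1 inhibitor, and Apobec3 (r = 0.883), a cytidine deaminase acting against retroviruses. Hspa1a stood at 44.0 FPKM in Flox20 and 30.4 FPKM in Flox21, against 3.07 to 14.1 FPKM in the other chow libraries, and at 340.2 FPKM in Ctrl5 against 24.5 to 183 FPKM in the other HFD libraries. Serping1 stood at 69.7 FPKM in Flox20, 80.2 FPKM in Flox21 and 100.01 FPKM in Ctrl5. Among the members themselves, the closest pairs after S100a8 and S100a9 in the chow table were Cxcl1 with S100a8 (r = 0.96) and with S100a9 (r = 0.95), followed by S100a8 with Slpi (r = 0.93), over 8 libraries. In the HFD table they were Cxcl1 with Ccl2 (r = 0.90), Slpi with Lcn2 (r = 0.90) and Il1b with Cxcl2 (r = 0.89), over 8 libraries. These correlations rest on few high libraries and describe them only.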

How the data were processed

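The authors deposited 2 tables of FPKM values, which they had computed from islet RNA libraries sequenced on the Illumina NovaSeq platform. The submitters' processing notes name the mouse build mm10. The aligner, the counting tool and the annotation are not given in the sources used here. Each table was normalised on its own, so each comparison was fitted within its table, with all 4 libraries per group. Values were analysed as log2(FPKM + 0.5) with limma 3.58.1 in R 4.3.3 (trend and robust empirical Bayes, two-sided, Benjamini-Hochberg adjustment) over genes averaging at least 0.5 FPKM. A call needed a log2 difference beyond 1 in size and an adjusted p under 0.05. Depth in reads is unknown, and no intervals from counts are given. Nothing says whether a library is 1 mouse or a pool, so p-values measure the spread between libraries. Members and gene lists were chosen with earlier results of these data known. Named beside the members are called pathway genes, receptors and partners, the 5 most alike genes, Vtcn1 and, of the marker lists, defining and top genes. In simulated data limma recovered 196 of 200 changed genes in the design of the chow table and 88 of 200 in that of the HFD table, at a log2 change of 2. There each gene varied independently, without the shared differences in acinar content, and the changed genes had higher mean levels than most members. These rates therefore do not carry over to the members or to the real libraries. Alternatives were other pseudocounts, filters, scaling and moderation, a replicate block, the acinar share as a covariate, 3 libraries per group and each library left out.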

Additional observations from a re-analysis of the deposited data

Results flagged for a closer look

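In 7 of 39 groups of 4 libraries with nonzero spread, the gap between 1 library and the other 3, relative to the range, was above Dixon's 95% limit. Chance alone passes this limit in about 1 in 20 groups, but the genes were selected on these same values, so the number of groups is a description and supports nothing. Ctrl5 was far above the other Ctrl libraries for Cxcl1 (2.31 FPKM) and Ccl2 (2.78 FPKM). It was also the library with the highest macrophage marker sum and the lowest acinar share, whose part was not tested. cKO9 was far above the other cKO libraries for Lcn2 (5.33 FPKM), and Lcn2 was the one member whose highest value of the whole chow table was in cKO9. OE2 was far below the other OE libraries for Cxcl1 (0.0610 FPKM, 2 steps). In the other 3 groups the library apart held 1 step while the rest were at 0, so that the gap equals the range by construction, namely S100a8 in cKO12 (0.0826 FPKM) and OE4 (0.0735 FPKM) and Slpi in cKO8 (0.0287 FPKM).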

How the results depend on the processing

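The member medians moved with the processing. The cKO median (-0.56) was -0.93 with a pseudocount of 0.1, -0.35 with 1 and 0.19 with the acinar covariate, and between -0.77 and -0.28 (without Flox20) with a library left out. The OE median (-0.40) was -0.72 with a pseudocount of 0.1 and -0.30 with 1, and between -0.68 (without Ctrl3) and -0.07 (without Ctrl5) with a library left out. Of 340 alternative values of single members 15 moved by more than their spread, most of them with a pseudocount of 0.1 or the acinar covariate, and Ccl2 and Nfkbia kept their sign in the cKO comparison throughout. The Il1r1 call held in 15 of 17 alternatives. The number of genes called between cKO and Flox (155) was 84 with a pseudocount of 1, 307 with 0.1, 0 with every gene above 0 FPKM, 36 with median-of-ratios scaling, 272 with plain empirical Bayes, 0 with the acinar covariate, 699 with 3 libraries per group and 1631 without a fold minimum, and it lay between 18 (without cKO9) and 507 (without Flox17) with a library left out (491 without Flox16, 47 without Flox20, 44 without Flox21, 60 without cKO38). The pathway genes called (1) were 6 with a pseudocount of 0.1, 0 with every gene above 0 FPKM, 2 with plain empirical Bayes, 0 with the acinar covariate, 13 with 3 libraries per group, 10 without a fold minimum and 1 to 10 with a library left out. Between OE and Ctrl the genes called (4) were 10 with every gene above 0 FPKM, 480 with the acinar covariate and 4 to 5 with a library left out, and the pathway genes called were 1 with the acinar covariate instead of 0. The cause of these changes was not tested. With the replicate number as a block 268 genes and 2 pathway genes were called between cKO and Flox and 4 genes between OE and Ctrl, but the numbers do not pair the libraries, since correlations of same-numbered libraries were between -0.21 and 0.12 and 0 of 4 cKO and Flox pairs and 1 of 4 OE and Ctrl pairs correlated best with their own number. Most members rest on few fragments, so small differences could not be seen at this depth.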
